A study of Sinonovacula constricta with 9 samples.

Results

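In whole juveniles of the razor clam Sinonovacula constricta, 116 transcript sequences stood at least 2-fold below their control level after a short exposure to high salinity, while their mean level at low salinity lay within 1.5-fold of the control. The study exposed juveniles on day 15 after fertilization for 6 h to 5 psu (low salinity), 15 psu (the control, called optimal in the labels) or 25 psu (high salinity), and sequenced RNA from the whole organism in 3 libraries per group, 9 in all. The practical salinity unit, psu, is close to grams of salt per kilogram of water. No genetic change and no chemical treatment is given for any group. Neither separate cultures for the libraries nor the number of juveniles in each is stated, so any p-value reflects the variation among these libraries alone, which may be technical.

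The razor clam lives buried in estuarine mud and, like other marine bivalves, lets its body fluid follow the salt content of the water around it. When salinity rises, water leaves its cells, and bivalve cells restore their volume by building up small solutes, free amino acids above all, and by moving ions across their membranes. Transcripts for solute synthesis, ion transport and protein folding are well-known targets of such regulation in bivalves. In RNA from a whole organism, fewer cells of a type and less RNA per cell give the same reading and cannot be told apart.

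The sequences are listed as unigenes, assembled transcripts with a cluster number and a number within the cluster. The files hold 246672 of them with no gene name, function or sequence, so the 116 are described by identifier, level, length and pattern, and no tissue or cell type markers could be read. All 116 belong to the assembly cluster numbered 8005, which holds 178061 of the unigenes and 99.8% of those abundant enough to be considered, so this sets them apart from nothing.

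The 116 were chosen on their levels in these same libraries. Levels are given in FPKM, the fragments of a unigene scaled to its length and to the depth of the library, as the authors computed them. A unigene was considered when its mean over the 9 libraries reached 2 FPKM, when its estimated read counts summed to at least 300, and when it was not among the 100 unigenes with the most counts. These conditions left 27326 unigenes. In 2192 of them, or 8.02%, the highest library at 25 psu was below the lowest of the other 6. Of these, 165 had a ratio of group means of 15 over 25 psu of at least 2, with 0.1 FPKM added to each mean. Finally the ratio of 5 over 15 psu had to lie within 1.5-fold of 1 in either direction, and 116 remained. Of the 49 left out by that last condition, 39 were higher at 5 psu than the window allows and 10 were lower. Since the order of the libraries and the sizes of both ratios chose the members, these are given as a description and support nothing by themselves. The same rule turned upside down, for unigenes higher only at 25 psu, found 216.

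The conditions cut through a continuous range. The members nearest to the limit of 2 were Cluster-8005.78358, Cluster-8005.93820 and Cluster-8005.92852, with ratios of 15 over 25 psu of 2.002 to 2.012. Just outside were Cluster-8005.123595, Cluster-8005.93826 and Cluster-8005.126690, with ratios of 1.998, 1.993 and 1.987. At the upper end of the 5 over 15 psu window the nearest member had a ratio of 1.50 and the nearest unigene outside it one of 1.51. At the lower end these were 0.672 and 0.656.

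Total estimated counts ran from 15897903 to 18427234 per library. Replicate libraries differed by more than counting noise in every group, the chi-square over the unigenes considered being 3.90 to 20.8 times its degrees of freedom. Replicate 2 at 15 psu stood apart in 656 unigenes that had at least 30 counts in all and at least 90% of them in that 1 library, against 5 to 16 in each of the others. None of the 116 was of this kind, and no library held more than 26.6% of the counts of any of them. Without that library the rule found 117 unigenes, 93 of them among the 116. The effective length of a unigene implied by its count and FPKM, which is its length less a mean fragment length, also moved with the groups. It was offset by -6.33 to -4.43 nucleotides at 25 psu, by -4.05 to 6.27 at 5 psu and by -2.51 to 11.4 at 15 psu, so that the libraries at 25 psu lay below all others. The part of this offset in the results was not tested by any means that tells it apart from salinity, and values with it as a covariate are given below.

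**Figure D1:**
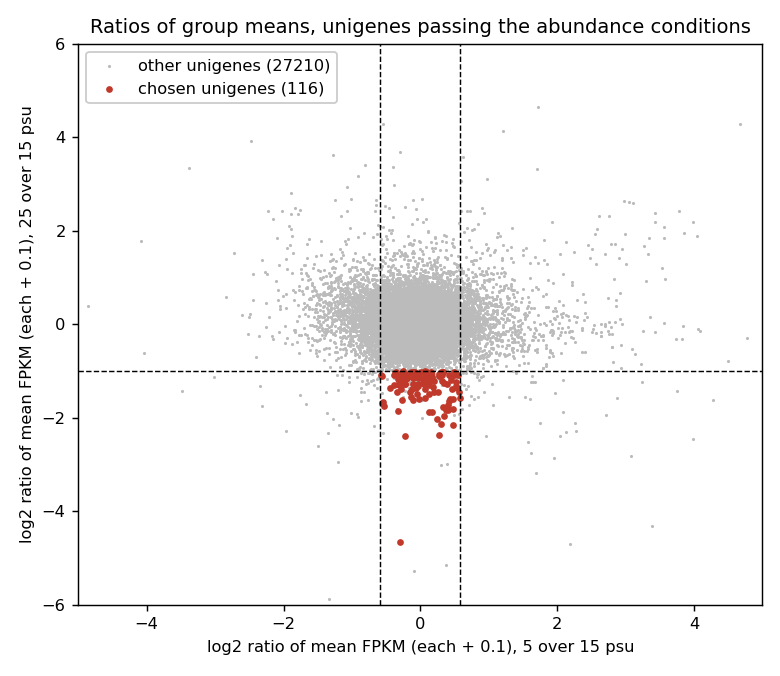
Each point is 1 unigene that passed the abundance conditions. The x axis is the log2 ratio of mean FPKM (0.1 added) at 5 over 15 psu, the y axis the same for 25 over 15 psu, and dashed lines are the limits of the rule (a ratio of 2, and 1.5-fold either way). The 116 chosen unigenes (red) fill the box below the centre of a single cloud of 27210 others (grey), and 35 grey points lie outside the axes. Grey points inside the box failed the condition on the order of the libraries.

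As a group the 116 were a small part of the RNA. They held 0.142 to 0.152% of the counts in the libraries at 15 psu, 0.150 to 0.162% at 5 psu and 0.0583 to 0.0637% at 25 psu. The means were 0.147% ± 0.0052, 0.157% ± 0.0061 and 0.0608% ± 0.0027 (SD, n = 3 each). The median level over the members was 4.74, 4.96 and 5.66 FPKM in the libraries at 15 psu, 5.25, 5.52 and 5.46 FPKM at 5 psu, and 2.25, 1.88 and 1.93 FPKM at 25 psu. Over all unigenes considered, the median level stayed between 5.10 and 5.74 FPKM in the 9 libraries. The median unigene thus showed no drop at 25 psu. Of the members' counts, 28.4% at 15 psu and 29.6% at 25 psu came from the 3 most abundant members, and without these the remaining 113 held 0.105% ± 0.0049 at 15 psu and 0.0428% ± 0.0025 at 25 psu (SD, n = 3 each).

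Most members lay between 2-fold and 3-fold below the control. The ratio of 15 over 25 psu ran from 2.002 to 25.1 with a median of 2.32 and quartiles of 2.12 and 2.76. It lay under 2.5 for 72 members, from 2.5 to under 3 for 20, from 3 to under 4 for 18 and from 4 to under 6 for 5, and 1 member lay beyond. None had 0 counts in all 3 libraries at 25 psu, and 3 had 0 counts in 1 of them. For 19 members every library at 25 psu lay at least 2-fold below the lowest of the other 6, while for 8 the highest library at 25 psu came within 1.1-fold of the lowest of the others.

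**Figure D2:**
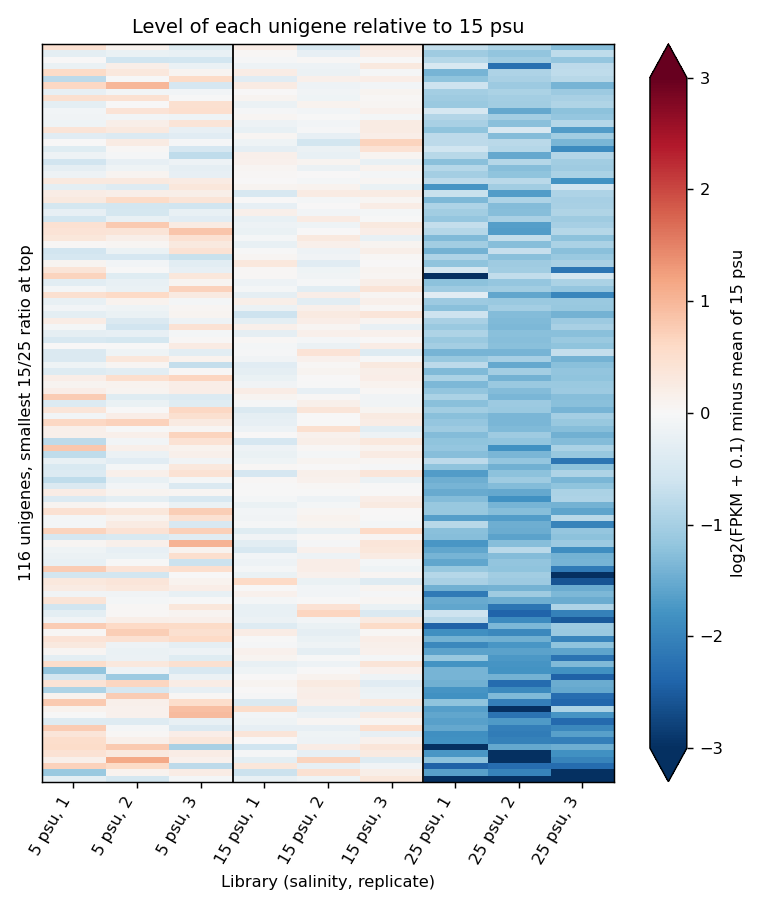
Rows are the 116 unigenes ordered by their ratio of 15 over 25 psu (smallest at the top) and columns the 9 libraries by salinity and replicate. Colour is log2(FPKM + 0.1) minus the mean of the 3 libraries at 15 psu, and values below -3 share the darkest blue. The columns at 25 psu are blue throughout, as the rule requires, while those at 5 psu hold both red and blue rows.

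The most abundant member was Cluster-8005.104346, and its replicates lay close together. It stood at 191, 181 and 201 FPKM in the 3 libraries at 15 psu, at 227, 238 and 217 FPKM at 5 psu, and at 70.3, 71.2 and 67.6 FPKM at 25 psu. No groups overlapped, and the highest levels were at 5 psu, where the mean was 1.19 times that of the control. Its mean at 15 psu was 2.74 times that at 25 psu, and its counts were whole numbers in every library, which shows no sign of reads divided between it and another unigene. The second, Cluster-8005.104341, stood at 104, 127 and 122 FPKM at 15 psu, at 96.2, 118 and 164 FPKM at 5 psu and at 54.0, 57.0 and 62.5 FPKM at 25 psu. Its libraries at 5 psu spread to both sides of those at 15 psu, and its ratio of 15 over 25 psu was 2.03. The third, Cluster-8005.112253, stood at 97.5, 93.0 and 89.2 FPKM at 15 psu, at 86.6, 88.6 and 84.8 FPKM at 5 psu and at 50.4, 45.8 and 41.4 FPKM at 25 psu. Its control libraries all lay slightly above those at 5 psu, and its ratio of 15 over 25 psu was 2.03.

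Cluster-8005.115100 came next in abundance but has the shortest implied effective length of all members, 86.8 nucleotides. It stood at 49.4, 58.2 and 53.3 FPKM at 15 psu, at 39.6, 67.7 and 57.7 FPKM at 5 psu and at 24.3, 26.6 and 20.1 FPKM at 25 psu, on 611 counts over all libraries. At so short a length, an offset of a few nucleotides between groups weighs more on the FPKM value than in the longer members. Cluster-8005.111866 stood at 33.3, 28.6 and 32.0 FPKM at 15 psu, at 43.7, 42.9 and 31.1 FPKM at 5 psu and at 14.8, 15.4 and 16.0 FPKM at 25 psu. Cluster-8005.81217 stood at 27.9, 35.0 and 32.1 FPKM at 15 psu, at 29.8, 28.9 and 32.8 FPKM at 5 psu and at 13.2, 15.6 and 14.3 FPKM at 25 psu. In both of these the ranges at 5 and 15 psu overlapped, and in Cluster-8005.81217 the range at 5 psu lay inside that of the control.

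Cluster-8005.93828 stood at 19.5, 19.4 and 19.7 FPKM at 15 psu, at 22.9, 20.6 and 20.5 FPKM at 5 psu and at 6.79, 6.68 and 10.1 FPKM at 25 psu. Its libraries at 5 psu all lay slightly above those at 15 psu, and replicate 3 at 25 psu was the highest of its group but still below every control library. Cluster-8005.108421 sits at the lower edge of the 5 over 15 psu window. It stood at 18.2, 21.8 and 25.1 FPKM at 15 psu, at 14.9, 14.6 and 14.1 FPKM at 5 psu and at 11.2, 8.62 and 10.9 FPKM at 25 psu. At 5 psu every library was below the lowest control library, with a mean 0.672 times the control, so for this member the words only at high salinity rest on the width of the window.

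**Figure D3:**
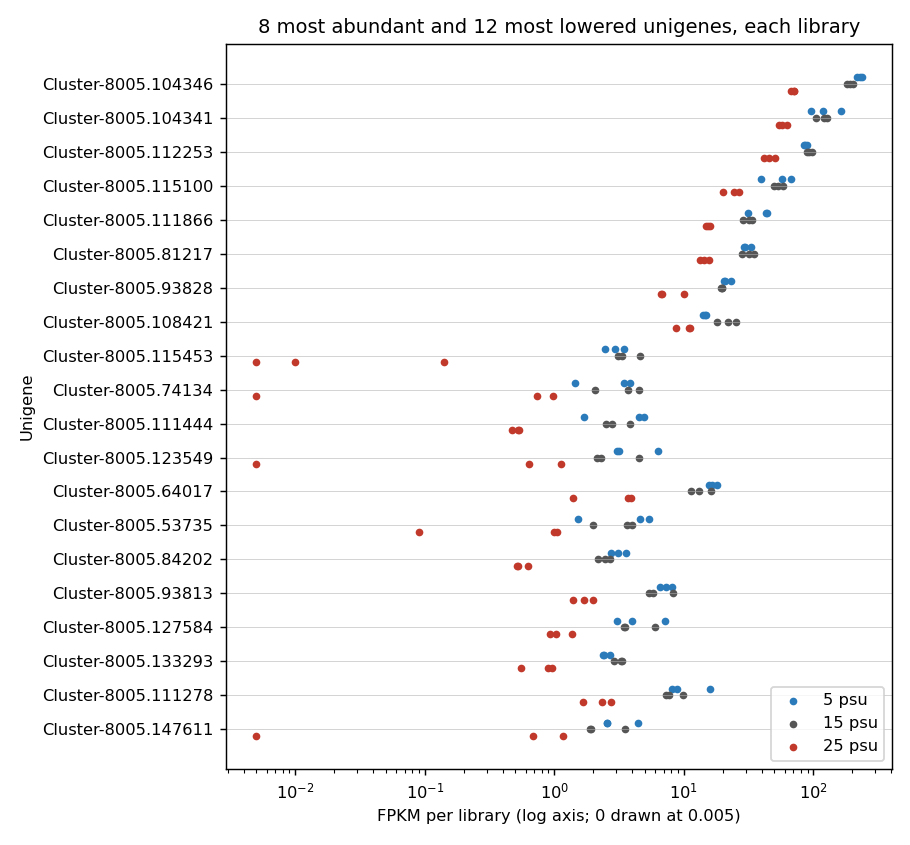
FPKM (x axis, log scale, values of 0 drawn at 0.005) in each of the 9 libraries for the 8 most abundant members (top rows) and the 12 with the largest ratio of 15 over 25 psu, with 5 psu in blue, 15 psu in grey and 25 psu in red. In the abundant members the red points lie, as group means, about 2 to 3 times below the grey ones. The blue points spread more widely in some, such as Cluster-8005.104341. Among the 12 with the largest ratio the red points lie close together in some, such as Cluster-8005.111444 and Cluster-8005.84202, and reach 0.00 FPKM in 4.

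The member with by far the largest ratio, 25.1, was Cluster-8005.115453. It stood at 3.09, 3.32 and 4.59 FPKM at 15 psu, at 2.92, 2.47 and 3.46 FPKM at 5 psu and at 0.01, 0.00 and 0.14 FPKM at 25 psu. It was almost absent from all 3 libraries at high salinity, with estimated counts of 0.13, 0 and 3.31 there. Over the group these round to 3 counts against 279 at 15 psu. Scaled to the library totals this is a ratio of 88.6 with an exact 95% interval of 29.99 to 432, which covers counting error only. Its counts were not whole in 8 of the 9 libraries, so its reads were shared with other unigenes.

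Cluster-8005.74134, the second by ratio at 5.23, stood at 2.05, 4.49 and 3.68 FPKM at 15 psu, at 1.44, 3.47 and 3.83 FPKM at 5 psu and at 0.98, 0.73 and 0.00 FPKM at 25 psu. Cluster-8005.111444, at 5.16, stood at 3.82, 2.52 and 2.76 FPKM at 15 psu, at 4.90, 4.52 and 1.68 FPKM at 5 psu and at 0.47, 0.53 and 0.52 FPKM at 25 psu. In the first the ratio owes much to replicate 3 at 25 psu, while in the second the 3 libraries at 25 psu were alike. Cluster-8005.123549, at 4.45, stood at 2.27, 4.52 and 2.12 FPKM at 15 psu, at 3.13, 6.26 and 3.06 FPKM at 5 psu and at 1.13, 0.00 and 0.64 FPKM at 25 psu. It is the longest member, with an implied effective length of 9032 nucleotides, and its replicate 2 was the highest of its group at both 5 and 15 psu and the lowest at 25 psu.

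Cluster-8005.64017, at 4.37, stood at 13.0, 11.3 and 16.2 FPKM at 15 psu, at 18.03, 16.35 and 15.52 FPKM at 5 psu and at 3.92, 1.38 and 3.73 FPKM at 25 psu. It is the only 1 of the 12 members with the largest ratios whose mean over the 9 libraries exceeded 10 FPKM. Cluster-8005.53735, at 4.07, stood at 2.0, 3.61 and 3.99 FPKM at 15 psu, at 4.55, 5.36 and 1.52 FPKM at 5 psu and at 0.09, 1.0 and 1.04 FPKM at 25 psu. Cluster-8005.84202, at 3.91, stood at 2.46, 2.18 and 2.68 FPKM at 15 psu, at 3.54, 2.73 and 3.10 FPKM at 5 psu and at 0.62, 0.52 and 0.51 FPKM at 25 psu. Its libraries at 5 psu all lay above those of the control, and its 3 libraries at 25 psu lay close together.

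The other 5 of these 12 had ratios of 3.55 to 3.65. Cluster-8005.93813 stood at 8.26, 5.81 and 5.33 FPKM at 15 psu, at 8.14, 6.49 and 7.28 FPKM at 5 psu and at 1.70, 1.40 and 1.99 FPKM at 25 psu. Cluster-8005.127584 stood at 3.47, 3.49 and 5.93 FPKM at 15 psu, at 7.13, 3.98 and 3.03 FPKM at 5 psu and at 1.37, 0.92 and 1.02 FPKM at 25 psu. The first was even at 5 and 15 psu, while in the second replicate 1 at 5 psu and replicate 3 at 15 psu stood above the rest of their groups. Cluster-8005.133293 stood at 2.88, 3.31 and 3.29 FPKM at 15 psu, at 2.37, 2.40 and 2.71 FPKM at 5 psu and at 0.96, 0.90 and 0.55 FPKM at 25 psu. Its groups did not overlap, and its level followed the order 15, 5, 25 psu. Cluster-8005.111278 stood at 7.67, 7.26 and 9.76 FPKM at 15 psu, at 8.11, 8.91 and 15.8 FPKM at 5 psu and at 2.72, 1.67 and 2.33 FPKM at 25 psu. Cluster-8005.147611 stood at 3.48, 1.89 and 1.92 FPKM at 15 psu, at 2.53, 2.55 and 4.44 FPKM at 5 psu and at 0.68, 0.00 and 1.16 FPKM at 25 psu. The former has the largest ratio, 3.56, among members whose counts were whole in every library, while the latter had 0 counts in replicate 2 at 25 psu.

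The mean at 5 psu was above that at 15 psu in 60 of the 116 and below it in the other 56, and it was within 1.2-fold for 59. This balance is shaped by the rule, whose window on the ratio of 5 over 15 psu removed 39 unigenes on the higher side and 10 on the lower. The 3 libraries of each group overlapped in 87 members. In 13 members, 11.2%, all 3 libraries at 5 psu lay above all 3 at 15 psu, against 10.4% of the unigenes considered. In 16 members, 13.8%, they all lay below, against 16.7% of the unigenes considered. Both shares are near the background, though the window on the ratio limits them. In 38 members the range of 1 group lay inside that of the other. The 5 most abundant of these were Cluster-8005.104341, Cluster-8005.115100, Cluster-8005.81217, Cluster-8005.109499 and Cluster-8005.136757, with ratios of 5 over 15 psu of 0.965 to 1.11 and of 15 over 25 psu of 2.03 to 2.29.

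A model fitted to the counts of all 71915 unigenes with enough counts (edgeR's quasi-likelihood F test with Benjamini-Hochberg adjustment and a threshold of 0.05) gives the precision behind these levels. At 5 against 15 psu, 2.85% of all unigenes were called in either direction and 0 of the 116 members. Among the 27295 unigenes considered that were tested, 951 were called lower and 670 higher at 5 psu. The rule keeps the members' ratio of 5 over 15 psu within 1.5-fold, which limits such calls in advance. Nothing is therefore read from the count of 0. At an unadjusted p under 0.05 there were 17 members, 12 higher and 5 lower at 5 psu. Of all 71915 unigenes, 5801 were lower at that threshold. Those higher were not counted, so the 12 have no background and nothing is read from the split. DESeq2's Wald test called 4 members and limma on log2(FPKM + 1) and on log2(FPKM + 0.1) none. Over all 71915 unigenes, DESeq2 called 1732 lower and 1513 higher at 5 psu. The 2 limma fits called 1304 and 1249 lower, and 1016 and 819 higher. A missing call does not show an unchanged level: the 95% interval of the difference had a median half-width of 0.54 on the log2 scale. It lay wholly within 1.5-fold of the control in 27 members and within 2-fold in 87. For Cluster-8005.104346 it ran from 0.09 to 0.48 above the control on the log2 scale, and for Cluster-8005.81217 from -0.27 to 0.23.

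At 25 against 15 psu the same model called 76 of the 116 lower, where 0.679% of all unigenes were called lower, and at 25 against 5 psu it called 96 lower, where 4.63% were. Among the 27295 unigenes considered that were tested, 301 and 1971 were called lower. The rule used both contrasts, so nothing is read from these counts. The calls were made in both for 74 members and in neither for 18, with the same limit. Over all unigenes the calls in both were not counted, and their share can be at most the 0.679% given above. The median log2 difference of the members was -1.25 at 25 against 15 psu, beside -0.01 over all unigenes tested. The 40 members not called at 25 against 15 psu had fewer counts (median of 579.8 over the 9 libraries, against 1009 in the 76) and more spread at 25 psu (highest over lowest library of 2.14 against 1.31, as medians), at a ratio of 15 over 25 psu of 2.20 against 2.40. The 76 became 50, 51 and 43 when replicate 1, 2 or 3 at 15 psu was left out. Without replicate 1, 2 or 3 at 25 psu it became 46, 43 and 45, and at 5 psu 77, 68 and 86. Over all unigenes tested, the 488 called lower became 201, 195 and 134 in the fits without a 15 psu library. They became 229, 190 and 221 without a 25 psu library, and 516, 325 and 636 without a 5 psu library. Adding the offset in effective length as a covariate, which separates the group at 25 psu from the others by itself, left 6 members called. Of all 71915 unigenes, 25 were called lower with this covariate, against 488 without it. The 6 members were Cluster-8005.104346, Cluster-8005.115453, Cluster-8005.84202, Cluster-8005.97950, Cluster-8005.98280 and Cluster-8005.98765. The median log2 difference of the 116 was -1.30 in that fit.

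To read the pattern in values that did not choose the members, each library was left out in turn, the rule applied to the other 8, and the left-out library then read. Without replicate 1, 2 or 3 at 25 psu, the rule found 175, 152 and 165 unigenes. In the left-out library 136, 121 and 130 of these lay below all 6 libraries at 5 and 15 psu, which is 77.7%, 79.6% and 78.8%. Over all unigenes considered the share was 19.5%, 20.6% and 18.4%. The 6 other libraries in this reading are still those that the rule used, which favours the unigenes it found. The median ratio of 15 psu over the left-out library was 1.93, 2.09 and 1.98, where the libraries used for the choice gave 2.34, 2.33 and 2.30. The difference in the unused library was thus smaller than in the libraries that chose the unigenes, and 46.3%, 56.6% and 49.1% kept a ratio of at least 2, against 2.28%, 2.39% and 2.07% of all unigenes considered.

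The control libraries were read in the same way. Without replicate 1, 2 or 3 at 15 psu the rule found 130, 117 and 93 unigenes, and 119, 109 and 85 of them lay above all 3 libraries at 25 psu in the left-out library. These are 91.5%, 93.2% and 91.4%, beside 27.1%, 31.8% and 34.9% of the unigenes considered. The median ratio of the left-out library over the mean of 25 psu was 2.05, 2.27 and 2.32, beside 0.963, 0.996 and 1.01 over all unigenes considered. The rule had chosen the unigenes it found for low levels in those same libraries at 25 psu, so only the left-out side of these ratios and shares is unused, and the comparison with all unigenes considered favours them. Without replicate 1, 2 or 3 at 5 psu the rule found 110, 99 and 104 unigenes, and the median ratio of the left-out library over 25 psu, with the same limit, was 2.17, 2.30 and 2.46. A set of 39 of the 116 was found in all 9 of these rounds.

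**Figure D4:**
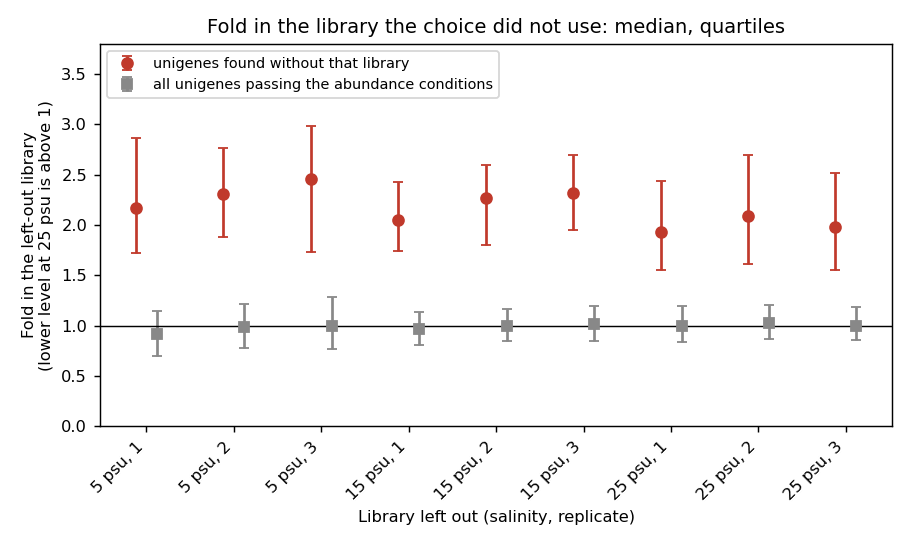
For each library left out of the rule (x axis), the fold in that library (y axis; 15 psu over the library for those at 25 psu, the library over 25 psu for the others) as the median with quartiles as bars, for the unigenes found from the other 8 (red circles) and for all unigenes considered (grey squares). The red medians lie between 1.93 and 2.46 and the grey ones between 0.912 and 1.02.

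Within groups the members correlated with each other about as they did with other unigenes. After the mean of each group was taken out of log2(FPKM + 0.1), the correlation between 2 members over the 9 libraries had a median of 0.05 over 6670 pairs, and 90% of the pairs lay between -0.66 and 0.73. Between a member and any other unigene considered the median was 0.04 and the same range was -0.68 to 0.72. These correlations are descriptions over 9 values that share libraries and group means, so neither shared nor separate movement is read from them. Replicate 3 at 15 psu was the highest control library for 58 of the 116, against 38.1% of the unigenes considered, and replicate 1 at 25 psu was the highest of its group for 52, against 40.1%. The spread between replicates at 25 psu, as the SD of log2(FPKM + 0.1), had a median of 0.25 in the members. It was 0.16 over the unigenes considered, and 0.23 over the 9749 of these with as many counts at 25 psu as the middle 50% of the members.

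The members were less abundant than the unigenes they were drawn from. Their mean over the 9 libraries had a median of 4.18 FPKM with quartiles of 2.56 and 7.17, against 5.60 FPKM with quartiles of 3.32 and 11.5 for the unigenes considered. Within each band of mean level, the members per 1000 unigenes considered in that band were 5.54 from 2 to 5 FPKM, 4.45 from 5 to 10 FPKM, 2.07 from 10 to 50 FPKM and 1.90 at 50 FPKM and over. The level at 25 psu enters this mean, so lowering it also lowers the mean. Within the 116 the ratio of 15 over 25 psu had a Spearman correlation of -0.21 with the mean level and of -0.08 with the implied effective length.

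In length the members were close to the rest. Their implied effective length had a median of 1196 nucleotides with quartiles of 800.5 and 2170, against 1372 with quartiles of 790.3 and 2387. It was under 300 nucleotides in 5 members, 4.31%, against 5.36% of the unigenes considered. Counts that are not whole come from reads divided between unigenes, and 64 members had them in all 9 libraries, 55.2% against 53.8%. In 22 members, 19.0% against 29.6%, all counts were whole. These 22 had a median ratio of 15 over 25 psu of 2.34, close to that of all 116.

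Some members carry neighbouring numbers in their identifiers. This was noticed after the values were seen, and what the order of the numbers reflects is not given in the sources used here. With a median gap of 483 between neighbours, 10 gaps were 5 or less and the next was 18. These 10 gaps join 16 members into 6 runs. The largest run holds 6 members from Cluster-8005.93810 to Cluster-8005.93828. The others are pairs at 78013 and 78015, 101714 and 101716, 104341 and 104346 (the 2 most abundant members), 111746 and 111747, and 115451 and 115453.

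In the largest run Cluster-8005.93810 stood at 3.79, 5.92 and 3.39 FPKM at 15 psu and at 1.98, 1.63 and 1.70 FPKM at 25 psu. Cluster-8005.93823 stood at 5.82, 4.36 and 5.84 FPKM at 15 psu and at 1.66, 1.68 and 1.69 FPKM at 25 psu. The 6 members had ratios of 15 over 25 psu of 2.004 to 3.65 and of 5 over 15 psu of 0.841 to 1.13. Around them, up to 10 numbers away, lay 12 unigenes that are not members and have at least 100 counts. In 5 of these 12 all 3 libraries at 25 psu were below the other 6, against 6.39% of all 61768 unigenes with at least 100 counts, and 6 had a ratio of at least 1.5, against 10.6%. Cluster-8005.93814 stood at 4.91, 6.18 and 6.92 FPKM at 15 psu and at 2.0, 2.64 and 1.91 FPKM at 25 psu, but held too few counts to be considered. Cluster-8005.93836 stood at 1.95, 1.50 and 2.03 FPKM at 15 psu and at 0.39, 0.35 and 0.59 FPKM at 25 psu, and was too low. Unigenes of this stretch may share reads, and counts were not whole in all 9 libraries for 4 of the 6 members. After group means were taken out, the 15 pairs of these 6 members correlated at -0.86 to 0.64, with a median of 0.18.

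**Figure D5:**
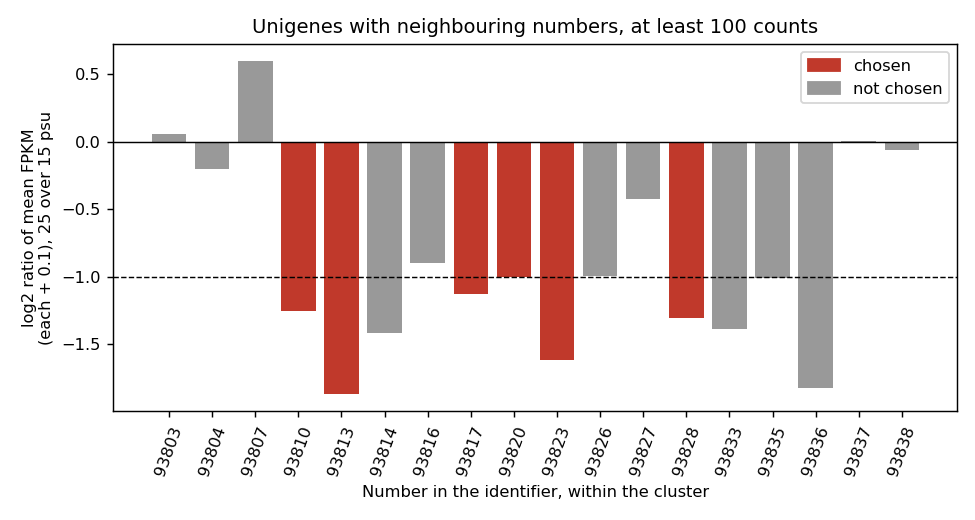
Bars give the log2 ratio of mean FPKM (0.1 added) at 25 over 15 psu for the unigenes with at least 100 counts whose numbers lie within 10 of the run from 93810 to 93828 (x axis: number in the identifier, not to scale). Red bars are chosen unigenes and grey bars others; the dashed line is the limit of a ratio of 2. All 6 red bars reach the line, as do grey bars at 93814, 93833, 93835 and 93836, while unigenes at both ends of the stretch lie near 0 or above.

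Around the 100 members outside the runs lay 1034 other unigenes within 10 numbers with at least 100 counts. Their median ratio of 15 over 25 psu was 1.04, beside 1.02 over all unigenes with that many counts, and 10.8% had a ratio of at least 1.5, beside 10.6%. All 3 libraries at 25 psu were below the other 6 in 8.12% of these neighbours, beside 6.39%. The 5 pairs went both ways. Around the pair at 78013 and 78015, 4 of 6 such neighbours had a ratio of at least 1.5 and 1 had all 3 libraries at 25 psu below the other 6. Around 101714 and 101716 these were 3 and 5 of 12, around 111746 and 111747 they were 2 and 1 of 11, and around 115451 and 115453 they were 3 and 0 of 18. Around the pair of the most abundant members both were 0 of 13. Between them, Cluster-8005.104344 went the other way, at 353, 384 and 367 FPKM at 15 psu, at 162, 177 and 184 FPKM at 5 psu and at 599, 621 and 544 FPKM at 25 psu.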

How the data were processed

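RNA of whole juveniles was sequenced in 9 libraries, 3 each at 5, 15 and 25 psu. For each library the authors deposited a table of unigenes with an estimated read count, which need not be whole, and an FPKM value, per the file headers. RSEM and Bowtie2 were used, per the submitters' processing notes. No source used here gives their versions, the assembler or the trimming. RSEM divides a read that fits several unigenes between them.

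Members were chosen on the deposited FPKM and estimated counts, and the members and tests were chosen with earlier results of these data known. For the tests each estimated count was rounded, and edgeR's filterByExpr kept 71915 of 246672 unigenes. Counts were scaled by TMM and tested with edgeR 4.0.16 (R 4.3.3) by the quasi-likelihood F test, in 1 model of the 3 groups, with Benjamini-Hochberg adjustment over all unigenes tested and a threshold of 0.05. Scripts were tested on simulated counts. Because the members were chosen on these contrasts, no p-value is given for a single member. Totals of 15897903 to 18427234 counts per library leave a median of 110.0 counts per member over the 3 libraries at 25 psu. The counting interval given covers counting error only.

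Named members were the 12 with the largest ratio of 15 over 25 psu, the 8 most abundant, the 5 most abundant whose range at 5 or 15 psu lay inside the other, the 3 nearest above the limit of 2, and the 3 unigenes nearest below it. Other members are named where a result turns on them, chosen after their values were seen. Replicate numbers are shared by the groups in the labels, but deviations from the group means of same-numbered libraries had correlations from -0.02 to 0.11. A single pair of the 9 exceeded 0.1, so the libraries were not taken as paired. The alternatives were other scalings, filters, pseudocounts, DESeq2 1.42.0, limma 3.58.1 on log2(FPKM + 1) and log2(FPKM + 0.1), a replicate block, the offset in effective length as a covariate, each library left out, and, chosen after seeing the data, CPM in place of FPKM. The offset was taken from unigenes with a mean count of at least 2000. A planned comparison with other unigenes of small assembly clusters could not be run, since no member is in one. Gene lists were not used, since the identifiers carry no names.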

Additional observations from a re-analysis of the deposited data

How the results depend on the processing

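The number of unigenes found by the rule depended most on the minimums for level and count. It was 116 as given, 1977 with no minimum, 25 with a mean of at least 5 FPKM and 1000 counts, and 56 (53 of them among the 116) with 1 FPKM added in place of 0.1. Other scalings, CPM and a pseudocount of 0.01 gave 101 to 127, and leaving out each library gave 93 to 175, the highest without replicate 1 at 25 psu. The number called lower at 25 against 15 psu was 76 as given, 6 with the offset in effective length as a covariate, 43 to 86 without each library in turn, and 75 to 96 under the other scalings, filters and tests. Over all unigenes tested these numbers were 488, 25, 134 to 636, and 487 to 929. With a replicate block 65 members were called lower, and over all unigenes tested 314 in place of 488. At 25 against 5 psu the block gave 91 members in place of 96, and 2845 of all unigenes in place of 3327. Every alternative in that contrast gave 65 to 103 members, where 1300 to 3923 of all unigenes tested were called lower. At 5 against 15 psu the count of 0 became 1 with a stricter filter and 4 with DESeq2, and 0 to 2 without each library. Over all unigenes tested, the stricter filter called 1461 lower and 1073 higher, and DESeq2 1732 and 1513. Without each library these were 547 to 1187 and 504 to 1012. The block gave 0 members, where 869 of all unigenes were called lower and 754 higher. The median log2 difference at 25 against 15 psu moved from -1.25 to -0.98 with limma on log2(FPKM + 1), which shrinks differences between low levels by construction. It lay between -1.29 and -1.20 without each library. The fitted sign of all 116 members was the same in every alternative at 25 against 15 psu. The rule asks for lower levels at 25 psu in these same libraries, so nothing is read from the sign. For the 25 named members, 387 of 450 alternative results kept their side of the threshold, 49 lost the call and 14 gained it. In 0 of them the sign changed, with the same limit. The cause was not tested for any of these changes. Among the members, 3 had 0 counts in a library at 25 psu, and the part of depth in this was not tested.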
